A study of Mus musculus and synthetic construct with 30 samples.

Results

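The clustered protocadherins are cell surface adhesion proteins whose genes lie in 3 tandem arrays, alpha (Pcdha), beta (Pcdhb) and gamma (Pcdhg), on mouse chromosome 18. In the alpha and gamma arrays each variable exon, with a promoter of its own, is spliced to constant exons that all isoforms of the array share, so the isoforms differ in their extracellular domains and carry the same cytoplasmic end. The beta genes have no constant exons and each is transcribed as a separate unit. In neurons, promoter choice by CTCF and cohesin gives single cells different sets of isoforms, which they use in self-recognition, dendrite self-avoidance and survival, and the C-type isoforms of the alpha and gamma arrays are known for a more constant expression.

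The members were the gene rows of 16 RNA-seq libraries whose symbol begins with Pcdha, Pcdhb or Pcdhg, and 24 of the 26759 gene rows met this rule. These are 22 rows for the beta genes, Pcdhb1 to Pcdhb22, with 1 transcript each, 1 row for the alpha array (symbol Pcdha2) and 1 row for the gamma array (symbol Pcdhga9). The symbols of the last 2 rows name a single isoform, but each row sums 9 transcripts that start at different variable exons, and both are called the alpha row and the gamma row here.

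The libraries come from 3 sources: tissue microdissected from the ganglionic eminence plus olfactory bulb (GE/OB) from E14.5 embryos of litter 46, kidney of E14.5 embryos from litter 43, and mouse embryonic stem cells (mESC) in 2i medium on feeder fibroblasts. In the knockout (KO, strain Periltm1.1Vlcg) most of the gene body of the lincRNA Peril was replaced by LacZ while its promoter was kept, and the wild type (WT) animals were of the same C57BL/6J/129S6 background (N3-C57BL/6J) without Neo. GE/OB was represented by 2 WT embryos (1 and 3, both male) and 2 KO embryos (2 and 7, both female), kidney by 3 WT embryos (1 and 8 male, 3 female) and 3 KO embryos (7 male, 9 and 10 female), and mESC by 3 wells of 1 male WT clone and 3 wells of 1 male KO clone. Genotype and sex therefore cannot be told apart in GE/OB, genotype and clone cannot be told apart in mESC, and tissue and litter cannot be told apart. Wells of 1 clone measure the spread between wells and not between lines.

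The libraries held between 17544707 and 45924887 counts, and all 24 members together took 0.0737 to 0.0911% of the counts in GE/OB, 0.0301 to 0.0389% in kidney and 0.00814 to 0.00903% in mESC. Markers matched the labels: ventral forebrain and interneuron markers summed to 1156 to 1254 TPM (RSEM's abundance per transcript length, scaled to a fixed total per library) in GE/OB and to at most 5.51 TPM elsewhere, and embryonic kidney markers to 498 to 601 TPM in kidney against at most 15.1 TPM elsewhere. GE/OB also held markers of cortical excitatory neurons, of which 6 summed to 609 to 741 TPM there and to at most 5.7 TPM elsewhere. LacZ stood at 44.4 to 45.8 TPM in the GE/OB KO and 69.6 to 73.7 TPM in the mESC KO libraries against at most 0.1 TPM in their WT. In kidney LacZ was at 0.08 to 0.15 TPM in KO and 0.09 to 0.47 TPM in WT, and Peril was at 0 in all kidney libraries, so the kidney labels were not checked by either gene.

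In the GENCODE vM21 annotation of mm10, the beta genes span chr18:37264938-37524479 on the plus strand, between the alpha genes (chr18:36930184-37187661) and the gamma genes (chr18:37661793-37841873). By transcript ID, the alpha row holds the C-type isoforms Pcdhac1 and Pcdhac2 together with transcripts of Pcdha1, Pcdha2, Pcdha9, Pcdha11 and Pcdha12, and a transcript of Gm42416 that joins an alpha variable exon to the gamma constant exons and reaches position 37840200. The gamma row holds the C-type isoforms Pcdhgc3, Pcdhgc4 and Pcdhgc5 with Pcdhga3, Pcdhga8, Pcdhga9, Pcdhga11, Pcdhga12 and Pcdhgb6. In vM21, 8 of the 9 alpha transcripts share constant exons of 59, 89 and 2712 bases, and all 9 gamma transcripts share exons of 59 and 89 bases and 8 of them an exon of 1971 bases. vM21 lists 14 alpha and 22 gamma genes, so reads from variable exons of the unlisted isoforms had no transcript of their own in these rows, and no single alpha or gamma isoform, C-type ones included, could be given a level. In vM21 3 readthrough gene models (Gm37013, Gm37388 and Gm42416) run across the whole beta array on the same strand, and Gm37446 lies against Pcdhb12 on the opposite strand, and reads of the pair cannot be told apart, since no strand option is among the RSEM settings the methods list.

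All 3 clusters were highest in GE/OB, with the gamma row above the summed beta genes and the alpha row in every library. The gamma row, whose proteins are needed for the survival of many neurons, was at 223.85 and 242.48 TPM in the WT and 272.11 and 228.62 TPM in the KO GE/OB libraries. In kidney it was at 78.79, 68.57 and 90.31 TPM in WT and 78.85, 88.01 and 86.83 TPM in KO, and in mESC at 26.16, 25.8 and 26.23 TPM in WT and 27.24, 28.87 and 29.03 TPM in KO. No library of one tissue overlapped another tissue in this row.

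The summed beta genes were at 51.2 and 60.33 TPM in the WT and 71.72 and 51.16 TPM in the KO GE/OB libraries. In kidney they summed to 20.96, 20.01 and 25.79 TPM in WT and 25.03, 28.84 and 25.06 TPM in KO. In mESC the 22 beta genes together reached 0.28 to 0.48 TPM in WT and 0.4 to 0.48 TPM in KO, from 16.01 to 44.1 counts per library.

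The alpha row was at 45.8 and 55.44 TPM in the WT and 65.02 and 44.09 TPM in the KO GE/OB libraries. It fell to 0.72, 0.66 and 0.77 TPM in WT kidney and 0.65, 0.69 and 0.74 TPM in KO kidney. In mESC it was at 0.25, 0.3 and 0.3 TPM in WT and 0.19, 0.28 and 0.29 TPM in KO, from 15 to 41 counts. The make-up of the locus therefore differed by tissue: the alpha row took 13.6 to 15.9% of the TPM of all members in GE/OB, 0.587 to 0.74% in kidney and 0.681 to 1.14% in mESC. The beta genes took 15.8 to 17.5% in GE/OB and 20.9 to 24.5% in kidney, but only 1.06 to 1.78% in mESC, where the gamma row made up 97.1 to 97.8%. If vM21 lengths hold, the row lengths given below mean that part of the alpha row was assigned in every library to the Gm42416 transcript. In vM21 that transcript carries gamma constant exons, and whether gamma reads were assigned to it was not tested. The levels, shares and fold changes of the alpha row may therefore not be of the alpha array alone.

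**Figure D1:**
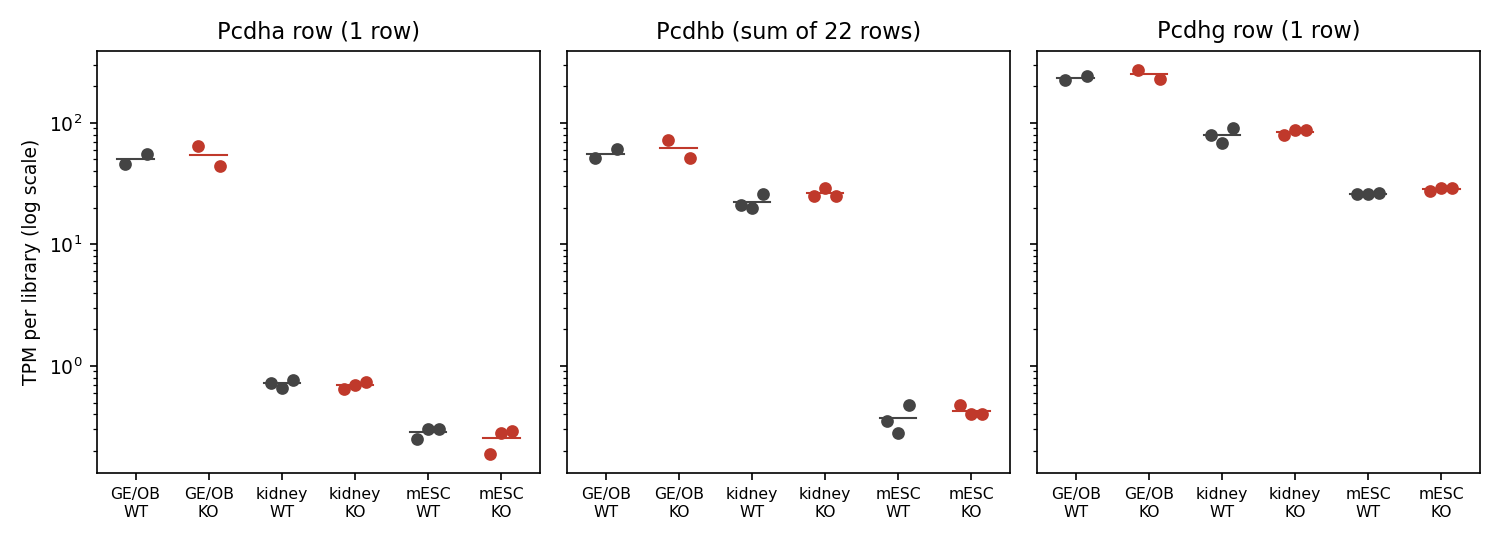
Level of each cluster in the 16 libraries, in TPM on a log axis, with 1 point per library and the group mean as a line (WT grey, KO red). The gamma row stayed at or above 25.8 TPM in every library, the beta sum dropped below 0.5 TPM in mESC, and the alpha row dropped below 0.8 TPM in kidney and mESC.

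The count model gave the same order. In edgeR's quasi-likelihood test on TMM-scaled counts, with Benjamini-Hochberg adjustment over 17459 tested genes, the alpha row was 49.1-fold higher in WT GE/OB than in WT kidney (log2 fold change 5.62, SE 0.17, adjusted p = 1.92e-14) and the gamma row 1.91-fold higher (log2 fold change 0.93, SE 0.10, adjusted p = 2.87e-07). Against WT mESC, the alpha row was 107-fold higher in GE/OB (log2 fold change 6.75, SE 0.18) and 2.19-fold higher in kidney (log2 fold change 1.13, SE 0.24, adjusted p = 0.000351). The gamma row was 5.55-fold higher in GE/OB and 2.9-fold higher in kidney than in mESC (log2 fold changes 2.47, SE 0.10, and 1.54, SE 0.10). On the TPM scale the median tested gene was itself 0.61 higher (log2) in GE/OB than in kidney and 0.74 higher than in mESC, so TPM ratios across tissues run above the fold changes of the count model: the gamma row was 2.94 times higher in GE/OB than in kidney by TPM, which is 0.95 (log2) above the median gene. In bulk samples, fewer cells of a type and less RNA per cell cannot be told apart.

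Markers of neurons, like the alpha row, were highest in GE/OB, but their order between kidney and mESC depended on the measure. The 10 neuron markers summed to 4825 to 5708 TPM in GE/OB and to 51.2 to 72.7 TPM in kidney, where none of them was at 0 in all libraries of a group, and 10 markers of peripheral nerve and neural crest summed to 13.7 to 39.95 TPM in kidney. In mESC the neuron markers summed to 377 to 417 TPM, above kidney, while the alpha row was lower than in kidney. Gene by gene, 5 of the 10 were called higher and 4 lower in WT kidney than in WT mESC. Of all tested genes 44.1% were higher and 40.2% lower there. The median log2 fold change of the neuron markers was 0.23, against 0.08 over all tested genes. The part of nerve or neuronal cells in the kidney level of the alpha row was not tested.

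Among the tested members, 18 of 23 were higher in WT GE/OB than in WT kidney and none was lower, where 78.4% of all tested genes were called, 37.9% higher and 40.6% lower. DESeq2 called 17, all among the 18. The count rested on WT embryo 3 of GE/OB: without it 8 members were called (the alpha and gamma rows, Pcdhb2, Pcdhb3, Pcdhb7, Pcdhb9, Pcdhb17 and Pcdhb18), all among the 18. The median log2 fold change was 0.84 over the 23 members and -0.04 over all tested genes. Pcdhb1 did not pass the filter on low counts. It had 1 count in 1 KO kidney library and 1 count in the KO mESC libraries, and was at 0 in all others.

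Of the beta genes, the largest differences between the tissues were in Pcdhb10, Pcdhb12 and Pcdhb3. Pcdhb10 was at 1.21 and 1.94 TPM in WT GE/OB and at 0.37, 0.18 and 0.53 TPM in WT kidney (log2 fold change 1.53, SE 0.40, adjusted p = 0.00367). Its groups did not overlap, although without GE/OB WT embryo 3 the fold change dropped to 1.14 and was no longer called. Pcdhb12 was at 1.09 and 1.15 TPM in GE/OB and 0.27, 0.15 and 0.43 TPM in kidney (log2 fold change 1.38, SE 0.46, adjusted p = 0.012), and this call was lost without GE/OB WT embryo 3 as well. Pcdhb3 was at 2.76 and 2.75 TPM in GE/OB and 0.65, 0.43 and 1.11 TPM in kidney (log2 fold change 1.32, SE 0.36, adjusted p = 0.00339).

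The 5 members that were not called between GE/OB and kidney were Pcdhb6, Pcdhb8, Pcdhb11, Pcdhb14 and Pcdhb22. Pcdhb22, the last gene of the array, was at 3.73 and 4.31 TPM in WT GE/OB and 2.54, 2.87 and 2.58 TPM in WT kidney. Its TPM groups did not overlap, yet its log2 fold change in the count model was -0.04 with a 95% interval from -0.45 to 0.37, which is a narrow one among the beta genes. The interval of Pcdhb14 ran from -0.55 to 0.45 and that of Pcdhb11 from -0.67 to 0.64. Pcdhb6 was at 1.56 and 1.45 TPM in WT GE/OB and 0.82, 0.85 and 2 TPM in WT kidney, with the third kidney library above both GE/OB libraries (log2 fold change -0.30, interval -1.16 to 0.56). With both genotypes averaged Pcdhb6 was called lower in GE/OB, and it was then the only member lower there.

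**Figure D2:**
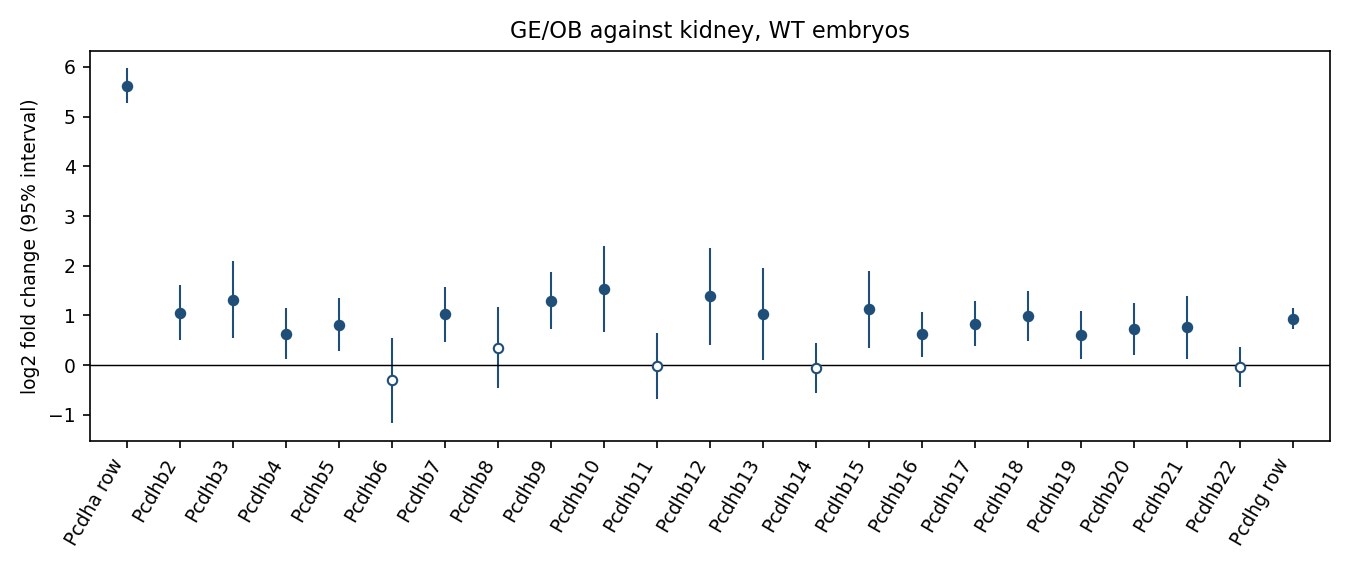
Log2 fold change between WT GE/OB and WT kidney for the 23 tested members, in array order, from the count model. Points are estimates, lines 95% intervals, and filled points passed an adjusted p of 0.05; the alpha row stood at 5.62, the gamma row at 0.93, and the beta genes ran from -0.30 to 1.53.

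Within the beta array the same genes led in both tissues. Pcdhb17, Pcdhb7, Pcdhb20 and Pcdhb22 were the 4 highest in GE/OB and in kidney, and together made up 38.7 to 42.2% of the beta TPM in GE/OB and 37.4 to 44.7% in kidney. Pcdhb17 was the highest by its WT mean in both tissues, at 7.06 and 8.24 TPM in WT and 10.42 and 6.67 TPM in KO GE/OB. In kidney it was at 2.29, 2.8 and 3.24 TPM in WT and 3.14, 3.04 and 3.09 TPM in KO. Pcdhb7 followed in GE/OB, with 5.75 and 5.98 TPM in WT and 8.45 and 5.97 TPM in KO, and did not overlap Pcdhb17 in WT.

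In kidney, Pcdhb22 was as high as Pcdhb17 within the spread of the embryos, at 2.54, 2.87 and 2.58 TPM in WT and 2.49, 3.15 and 2.86 TPM in KO. It took 9.95 to 14.3% of the beta TPM in kidney and 7.13 to 7.29% in GE/OB, while Pcdhb7 took 6.15 to 10.5% in kidney and 9.91 to 11.8% in GE/OB. Pcdhb6 took 3.91 to 8.6% in kidney and 2.03 to 3.05% in GE/OB. The lowest members apart from Pcdhb1 were Pcdhb13, at 0.39 and 0.8 TPM in WT GE/OB and 0.14, 0.22 and 0.21 TPM in WT kidney, and Pcdhb12.

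Ranked by WT mean TPM over the 22 beta genes, GE/OB and kidney gave a Spearman correlation of 0.81. Between WT and KO the correlation was 0.95 in GE/OB and 0.96 in kidney. These are descriptions across genes of 1 array, which share libraries and depth and are not independent. Level and place in the array were only loosely related, with a Spearman correlation of 0.34 in GE/OB and 0.39 in kidney. The number of beta genes at 1 TPM or more was 19 to 21 per library in GE/OB, 6 to 13 in kidney and 0 in mESC.

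**Figure D3:**
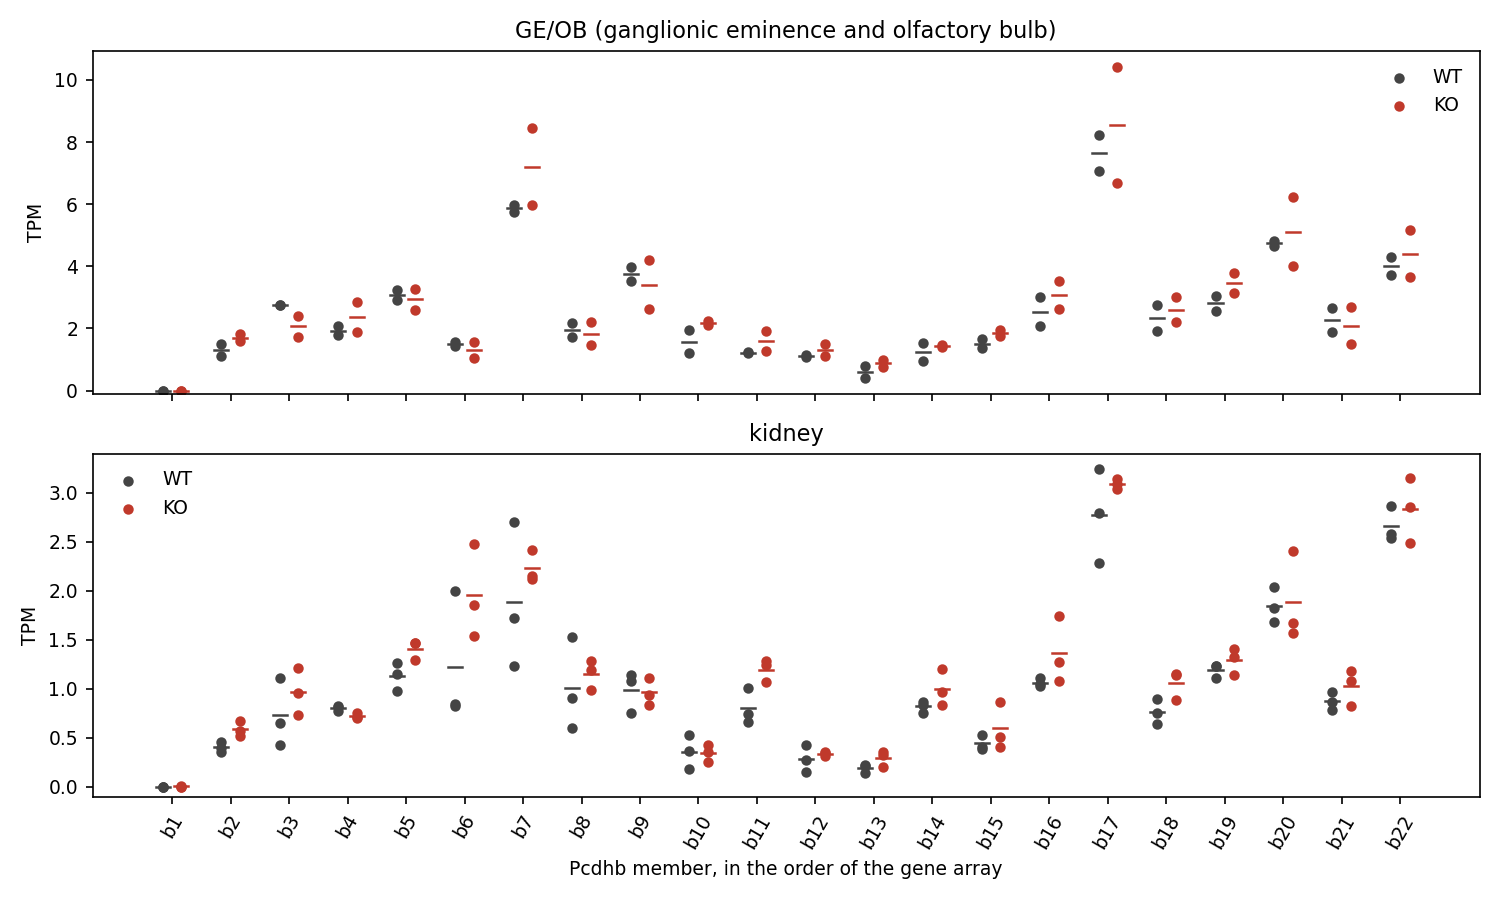
TPM of the 22 beta genes in array order in GE/OB (above) and kidney (below), with 1 point per library and the group mean as a line (WT grey, KO red); the vertical axes differ. Pcdhb17 was the highest by its WT mean in both tissues, Pcdhb1 was at or near 0, and Pcdhb6 in WT kidney was split between 0.82, 0.85 and 2 TPM.

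In mESC the beta genes were at the limit of detection. Between 9 and 16 of the 22 had any count in a library, and Pcdhb22 was the highest with 23 counts over the 3 WT wells and 13 over the 3 KO wells. Pcdhb14 had 11 and 13 counts. Pcdhb8 and Pcdhb10 had none in any of the 6 mESC libraries, and a floor of 3 counts over the WT wells put Pcdhb8 at least 59.7-fold and Pcdhb10 at least 58.7-fold higher in GE/OB. Pcdhb7, whose fitted difference was larger than those of Pcdhb8 and Pcdhb10, had 1 count in WT mESC and 378 in WT GE/OB. All 23 tested members were called higher than mESC in both WT GE/OB and WT kidney, where 84.8 and 84.3% of all tested genes were called, 43.5 and 44.1% higher and 41.3 and 40.2% lower. The beta genes passed the filter on low counts only through GE/OB and kidney and so had to differ, and this count adds nothing to the levels.

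A trace of the isoform mix in the gamma row was left in its length, which RSEM gives for each library as the mean length of the transcripts weighted by their abundance. It was 4738.08 and 4743.80 bases in WT and 4745.14 and 4738.80 bases in KO GE/OB. In kidney it was 4707.52 to 4710.38 bases over the 6 libraries. In mESC it was 4782.64 to 4783.97 bases in WT and 4781.22, 4771.56 and 4780.88 bases in KO. The 3 tissues did not overlap, so the 9 gamma transcripts were estimated in different proportions in each, although the length does not tell which. The share of other rows whose lengths also separated the tissues was not measured, so this cannot be called particular to the gamma row.

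Between genotypes the gamma length did not overlap in mESC, where the mean changed by -5.56 bases in KO. The second KO well carried most of this, and without it the difference was -2.39 bases. The exact permutation test, two-sided, gave p = 0.1, which is the smallest that 3 against 3 wells allow, and the lengths of 13.4% of comparable rows did not overlap in mESC either. In kidney and GE/OB the genotypes overlapped, where 7.76 and 32.4% of comparable rows did not. The alpha row gave 4903.78 to 4965.79 bases in GE/OB from at least 2134.02 counts per library. It gave 4340.38 to 5019.47 bases in kidney and 4752.97 to 5198.86 bases in mESC, where 15 to 120 counts per library stood behind it. All of these lie below the 5248 bases of Pcdha1, the shortest vM21 transcript of the row apart from that of Gm42416 (2856 bases). If the transcripts that were counted had these lengths, part of the alpha row was therefore assigned to the Gm42416 transcript. Transcript versions differ between vM21 and the annotation used for counting, so this was not established. How many gamma reads the Gm42416 transcript took was not tested.

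**Figure D4:**
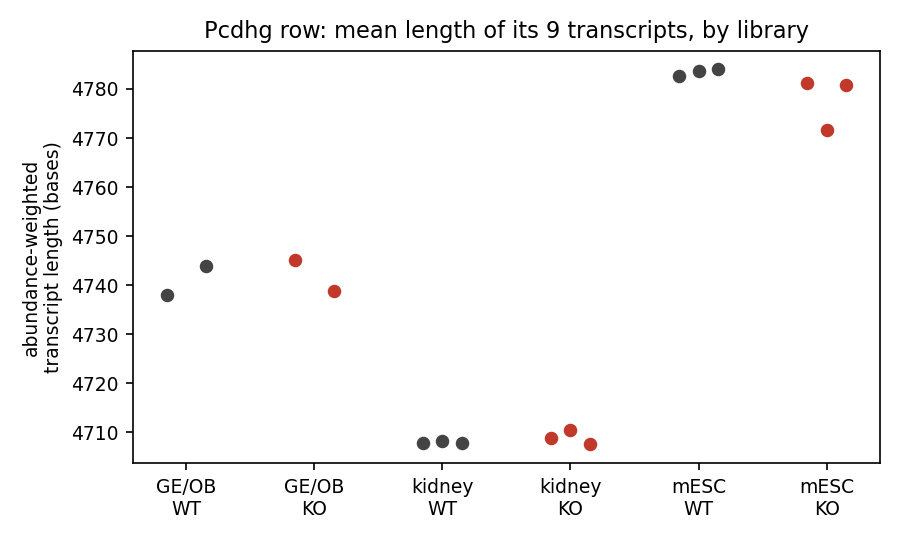
Abundance-weighted mean length, in bases, of the 9 transcripts of the gamma row in each library (WT grey, KO red). Kidney sits at 4707.52 to 4710.38 bases, GE/OB at 4738.08 to 4745.14 bases and mESC at 4771.56 to 4783.97 bases, without overlap between tissues.

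The comparison of KO with WT asks whether loss of the Peril gene body changes expression in each tissue, and no member was called in any of them. In GE/OB 0 of 23 tested members passed an adjusted p of 0.05 in edgeR, where 0.063% of all tested genes were called (0.0401% higher and 0.0229% lower), and 0 passed an unadjusted p of 0.05 or DESeq2. In kidney the counts were also 0 of 23, 0 unadjusted and 0 by DESeq2, with 0.223% of all genes called (0.0344% higher and 0.189% lower). In mESC they were 0, 0 and 0, with 6.86% of all genes called (2.27% higher and 4.59% lower). At the share called in GE/OB and kidney less than 1 member would be called, so a count of 0 does not set the members apart there. In mESC 21 of the 23 were beta genes with very few counts, so the 0 does not set them apart there either.

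The gamma row had the narrowest intervals. Its log2 fold change was 0.08 in GE/OB (95% interval -0.16 to 0.32), 0.01 in kidney (-0.18 to 0.21) and 0.05 in mESC (-0.15 to 0.25). By TPM it was higher in all 3 KO wells than in the WT wells of mESC, as were 17.9% of all tested genes, with 13% lower in all, and without the other tissues in the fit its fold change was 0.09, unadjusted p = 0.026 and adjusted p = 0.0837 in edgeR. The alpha row had log2 fold changes of 0.07 in GE/OB (-0.22 to 0.37), -0.07 in kidney (-0.50 to 0.35) and -0.29 in mESC (-0.93 to 0.36), where its counts were few.

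In GE/OB, KO embryo 2 was the highest library and KO embryo 7 the lowest or close to the lowest in the alpha row, the beta sum and 3 of the 4 leading beta genes, with the WT embryos between them. Without KO embryo 7 the alpha row was 0.33 higher in KO, and without KO embryo 2 it was 0.24 lower (log2, both uncalled). KO embryo 2 was also the highest in neuron markers, at 4825 and 5175 TPM in WT, 5708 TPM in KO embryo 2 and 4859 TPM in KO embryo 7, and the lowest in the 6 markers of cortical excitatory neurons, at 733 and 705 TPM in WT, 609 TPM in KO embryo 2 and 741 TPM in KO embryo 7. Their part in the spread of the members was not tested. The widest GE/OB changes among the beta genes were Pcdhb13 (log2 fold change 0.56, interval -0.35 to 1.46) and Pcdhb10 (0.44, -0.42 to 1.30) upward, and Pcdhb3 (-0.43, -1.25 to 0.39) and Pcdhb6 (-0.21, -1.16 to 0.75) downward. Pcdhb3 was at 2.76 and 2.75 TPM in WT and 2.41 and 1.72 TPM in KO, and its groups did not overlap. Pcdhb2, Pcdhb10, Pcdhb11, Pcdhb15 and Pcdhb19 were higher in both KO embryos than in both WT embryos by TPM, where 20.1% of all tested genes did not overlap with KO higher and 8.81% with KO lower. The median log2 fold change of the members was 0.15 with all libraries, -0.06 without KO embryo 2 and 0.37 without KO embryo 7.

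In kidney 17 of the 21 tested beta genes had a fold change above 0, with a median of 0.19 on the log2 scale against 0 over all tested genes. Over all 23 tested members the median was 0.18, and it was 0.07 without KO embryo 9, 0.07 without WT embryo 3 and 0.28 without WT embryo 8. None of these changes passed a test on its own. The widest upward were Pcdhb6 (log2 fold change 0.64, interval -0.06 to 1.33, adjusted p = 0.695) and Pcdhb13 (0.55, -0.26 to 1.36), and the widest downward Pcdhb4 (-0.24, -0.70 to 0.23) and Pcdhb9 (-0.10, -0.63 to 0.42). Pcdhb6 was at 0.82, 0.85 and 2 TPM in WT and 1.86, 2.48 and 1.54 TPM in KO, so WT embryo 8 lay among the KO embryos, and without that embryo the log2 fold change was 1.17, with an adjusted p of 0.219 in edgeR. Without WT embryo 8, 6 of the 23 members had an unadjusted p under 0.05 in edgeR and none was called. With all libraries 0 members and 1327 of the 17459 tested genes had one. The share of all genes without that embryo is not given, so the 6 do not set the members apart.

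Pcdhb11 had the smallest unadjusted p in kidney, 0.0613, with 0.66, 0.74 and 1.01 TPM in WT and 1.07, 1.24 and 1.28 TPM in KO. It did not overlap between genotypes, nor did Pcdhb2 and Pcdhb5, which were higher in KO, and Pcdhb4, which was lower. Across all tested genes 14.2% did not overlap with KO higher and 2.16% with KO lower. WT embryo 8 also stood highest of the WT kidneys in the gamma row, the beta sum and the fibroblast markers, which summed to 973, 1215 and 1670 TPM in WT embryos 1, 3 and 8 and to 1082 to 1157 TPM in KO, and skeletal muscle markers were lower in KO kidneys (66.2 to 70.2 TPM) than in WT kidneys (98.1 to 110 TPM). Their part in the kidney values was not tested.

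**Figure D5:**
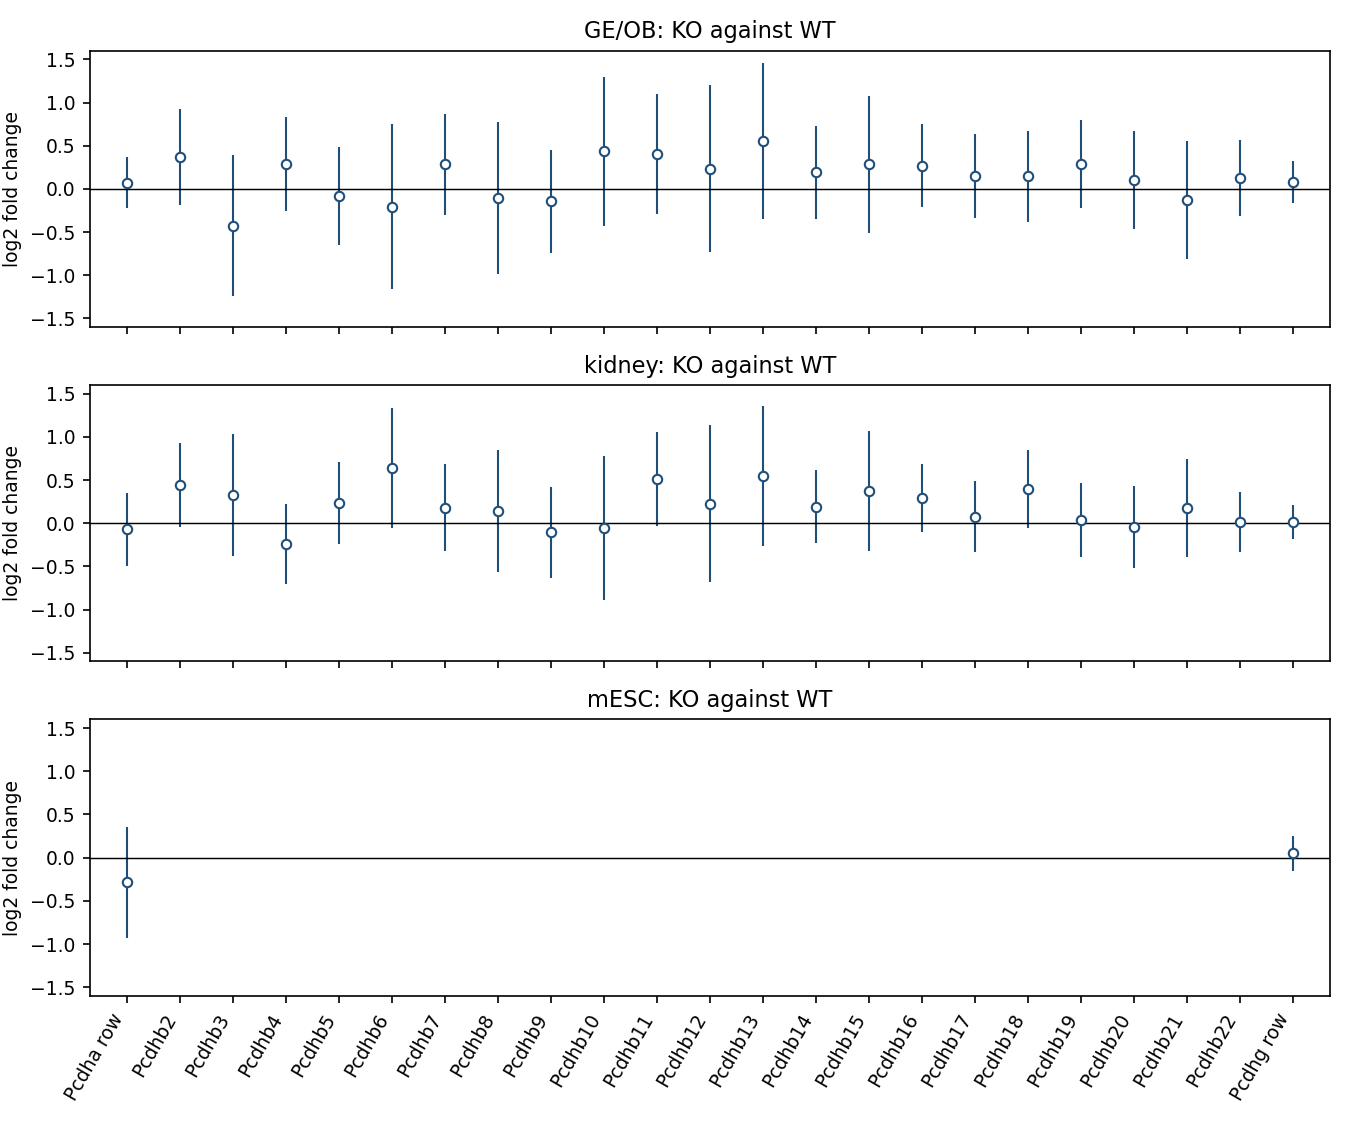
Log2 fold change of KO against WT in GE/OB, kidney and mESC from the count model, for the 23 tested members in GE/OB and kidney and for the alpha and gamma rows in mESC, where the beta genes had too few counts to draw. Points are estimates and lines 95% intervals, all of which include 0; open points did not pass an adjusted p of 0.05.

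In mESC the beta genes moved by single counts. The widest fitted changes were Pcdhb11 (1 count over the WT wells and 4 over the KO wells) and Pcdhb6 (1 and 3 counts) upward, and Pcdhb4 and Pcdhb13 (1 and 0 counts each) downward, and differences of this size were not detectable at this depth. Feeder fibroblast markers were at 5.21 to 6.44 TPM in WT and 2.6 to 3.92 TPM in KO wells, with Twist2 at 0 throughout, and their part in the members' few counts was not tested. The KO effect did not differ detectably between tissues for any member: 0 of 23 were called in each of the 3 interaction tests in edgeR, with 0 at an unadjusted p of 0.05 and 0 by DESeq2. The intervals of the gamma row for these differences ran from -0.24 to 0.32 (mESC minus kidney), -0.34 to 0.28 (mESC minus GE/OB) and -0.38 to 0.24 (kidney minus GE/OB) on the log2 scale. Of all tested genes 2.24% were called for mESC minus kidney (0.739% higher and 1.5% lower), 1.08% for mESC minus GE/OB (0.332% higher and 0.745% lower) and 0.0344% for kidney minus GE/OB, all of them lower.

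The regulators of protocadherin promoter choice were compared by a list of 28 genes, CTCF, cohesin and its loaders, DNA methylation enzymes and repressors, in 29 rows since Atf7ip has 2. None was called between KO and WT in GE/OB or kidney. In mESC 5 of the 29 rows were lower in KO and none was higher, where 4.59% of all tested genes were lower and 2.27% higher, with a median log2 fold change of -0.08 against -0.03 over all genes. They include the de novo DNA methyltransferases Dnmt3a (13.0, 14.4 and 14.48 TPM in WT and 7.27, 6.82 and 8.12 TPM in KO, log2 fold change -0.96, SE 0.06, adjusted p = 2.58e-08) and Dnmt3b (-0.49, SE 0.05) and their cofactor Dnmt3l (-1.40, SE 0.08). The zinc finger protein Wiz, a partner of the G9a and GLP histone methyltransferases, was also lower (-0.22, SE 0.05, adjusted p = 0.0235 in edgeR), as was Ehmt1, which encodes GLP (-0.18, SE 0.05, adjusted p = 0.0293 in edgeR). The few beta and alpha counts in mESC gave no measure of whether promoter output moved with them, and the gamma row was not called.

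Across tissues, Dnmt3b was lower in WT GE/OB than in WT kidney (log2 fold change -1.83, SE 0.09), and Tet2, which oxidises methylated cytosine, was higher (1.36, SE 0.06), as was the cohesin loader subunit Mau2 (0.92, SE 0.06). Of the 29 regulator rows 14 were higher and 7 lower in GE/OB than in kidney, where 37.9% of all tested genes were higher and 40.6% lower, so the share called was near that of all genes. Ctcf was at 124 and 111 TPM in WT GE/OB, 62.8 to 68.1 TPM in WT kidney and 85.2 to 86.5 TPM in WT mESC. In the count model, which removes the shift of the median gene, Ctcf was 0.18 higher in GE/OB than in kidney (log2, SE 0.06) and 0.31 lower than in mESC (log2 fold change -0.31, SE 0.06, adjusted p = 7.02e-05 in edgeR), so its direction against mESC flips between the scales.

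Of 21 partners and effectors of the protocadherin cytoplasmic domains, 1 was called in mESC KO against WT, the actin-binding PKC substrate Marcks (log2 fold change -0.28, SE 0.07, adjusted p = 0.0253 in edgeR), and none in GE/OB or kidney. Between WT GE/OB and WT kidney 10 were higher and 8 lower, a share near the 78.4% of all tested genes called there (37.9% higher and 40.6% lower). Members of the WAVE complex, which drives actin branching, differed in sign: Cyfip2 (3.23, SE 0.07) and Wasf1 (1.58, SE 0.08) were higher in GE/OB and Wasf2 (-2.05, SE 0.06) was lower. The kinase Fyn was higher in GE/OB (2.03, SE 0.08).

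The non-clustered protocadherins, which lie outside the 3 arrays and have cytoplasmic domains of their own, formed a list of 14, of which 13 were tested. Of these 9 were higher and 3 lower in WT GE/OB than in WT kidney, where 78.4% of all tested genes were called (37.9% higher and 40.6% lower), and their median log2 fold change was 1.6 against -0.04 over all genes. Pcdh10 was at 48.4 and 53.1 TPM in WT GE/OB and at 0.34, 0.39 and 0.35 TPM in WT kidney (log2 fold change 6.67, SE 0.21). Pcdh8 (2.73, SE 0.23), Pcdh1 (2.32, SE 0.13) and Pcdh9 (1.99, SE 0.17) were higher too. Pcdh18 was lower in GE/OB than in kidney (-1.29, SE 0.13), and none of the 13 was called between KO and WT in any tissue.

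Of 23 genes beside or within the arrays on chromosome 18, among them Pcdh1 and Pcdh12 of the list above, none was called between KO and WT in any tissue, and 10 were higher and 9 lower in WT GE/OB than in WT kidney, a share near the 78.4% of all tested genes called there (37.9% higher and 40.6% lower). Taf7, a subunit of the general transcription factor TFIID that lies between the beta and gamma arrays, was highest in mESC. It was at 23.6 and 21.8 TPM in WT GE/OB, 17.0 to 19.9 TPM in WT kidney and 98.4 to 106 TPM in WT mESC, and its log2 fold change between GE/OB and mESC was -2.83 (SE 0.08, adjusted p = 4.12e-15 in edgeR). Between GE/OB and kidney the direction flips with the scale, since the count model put Taf7 lower in GE/OB (log2 fold change -0.36, SE 0.08, adjusted p = 0.000648 in edgeR) although its TPM was higher. Slc25a2, a mitochondrial carrier gene in the same interval, was at 0.03 to 0.56 TPM in the WT libraries. Beyond the gamma array, Diap1, the files' symbol for the actin nucleator Diaph1, was lower in WT kidney than in WT mESC (-2.74, SE 0.09), and Gnpda1, an enzyme of amino sugar metabolism, was lower in both tissues than in mESC (-3.80, SE 0.08, in GE/OB and -3.19, SE 0.06, in kidney). Arap3, a GTPase-activating protein, was higher in both than in mESC (6.79, SE 0.26, and 8.33, SE 0.22). Between GE/OB and kidney the clearest differences besides Pcdh1 were in Rell2 (5.89, SE 0.31), the respiratory complex I subunit Ndufa2 (-1.37, SE 0.07) and Slc35a4 (-1.10, SE 0.07).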

How the data were processed

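PolyA-selected RNA was sequenced as paired ends. The authors aligned the reads to mm10 and quantified them with RSEM and bowtie2 against GENCODE vM2 transcripts with added lncRNAs and LacZ, and deposited for each library the expected count, the TPM and the abundance-weighted transcript length of each gene row. RSEM splits reads that fit several transcripts, and the expected counts of 18 of the 22 beta rows were more than 0.005 above a whole number in some library.

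Expected counts were rounded and fitted in edgeR 4.0.16 (R 4.3.3) with TMM factors, filterByExpr and 1 coefficient for each of 6 groups over the 16 libraries. Quasi-likelihood tests were adjusted by Benjamini-Hochberg over 17459 genes, called at 0.05. SE is the absolute log2 fold change over the square root of F, and intervals are 95%. Cluster sums in TPM were compared without a test. Alternatives were DESeq2 1.42.0, RLE factors, other filters, a threshold of 0.01, sex as a covariate, a block of well numbers, single tissues, both genotypes averaged and leaving out each library. In simulated counts with 200 changed genes, the share of 2-fold and 4-fold changes recovered was 71.6 and 84.8% for kidney KO against WT, 65.7 and 75.8% for GE/OB and 58.2 and 75.8% for mESC, over 17459 genes each. False calls made up 7.1, 3.05 and 7.19% of the calls in kidney, GE/OB and mESC. The changed genes were drawn from all tested genes, with a trended spread and a looser filter. These shares therefore do not measure the power for the members, many of which had low counts. Replicates are embryos in the tissues and wells in mESC.

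The members and the gene lists were chosen with earlier results of these data known. Named were the 3 highest members per cluster and tissue by WT mean TPM, the C-type members (not separable), the 2 widest changes each way per KO contrast, the 3 largest called folds per cluster and tissue contrast, and up to 4 called genes of smallest p per list. A gene that this rule names is not reported here. Pcdhb1, Pcdhb2, Pcdhb15, Pcdhb18, Pcdhb19, Ehmt1, Pcdh18, Slc25a2, Ctcf and the members lost without 1 embryo were named after their values were seen. Reporter-assay tables and Hi-C data were not used here. Coordinates and transcript names are from GENCODE vM21 on mm10, matched by transcript ID, whose versions differ from those of the files. No clustered protocadherin sequence was printed.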

Additional observations from a re-analysis of the deposited data

How the results depend on the processing

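No member was called between KO and WT, or in the 3 comparisons of the KO effect between tissues, under any alternative run, although with mESC fitted alone only the alpha and gamma rows passed the filter. All 23 tested members stayed called against mESC, where 84.8% (GE/OB) and 84.3% (kidney) of all tested genes were called. For the beta genes this was fixed by the filter on low counts and adds nothing. Between GE/OB and kidney the count of called members was 18 as reported, 10 at a threshold of 0.01 and 8 to 18 when each library was left out, the lowest without GE/OB WT embryo 3, and 17 to 19 under the other alternatives. Among the values of the named members 1211 kept their side of the threshold and 3 lost a call, 1.14 for Pcdhb10 and 1.32 for Pcdhb12 without GE/OB WT embryo 3 and Pcdhb12 at the threshold of 0.01. With each library left out, the log2 KO to WT ratio of the summed TPM ran from -0.27 to 0.01 (alpha, mESC), -0.10 to 0.01 (alpha, kidney), -0.20 to 0.36 (alpha, GE/OB), 0.04 to 0.44 (beta, mESC), 0.17 to 0.36 (beta, kidney), -0.12 to 0.36 (beta, GE/OB), 0.11 to 0.15 (gamma, mESC), 0.00023 to 0.20 (gamma, kidney) and -0.03 to 0.22 (gamma, GE/OB). On the TPM scale the median gene was itself higher in KO, by 0.03 (mESC), 0.08 (kidney) and 0.05 (GE/OB) on the log2 scale. The kidney ratio of the beta genes was 0.24 by TPM and 0.15 by CPM. The mESC ratio of the beta genes turned from 0.21 to -0.16 with only the members at a mean of 1 TPM or more, on few counts, and that of the gamma row moved from 0.12 to 0.049 with CPM in place of TPM. In mESC the median gene also moved, from 0.03 by TPM to -0.03 in the count model (log2). The part of this shift in the ratios was not tested. The difference in gamma row length between KO and WT mESC, with each well left out in an alternative chosen after seeing the data, ran from -7.22 to -2.39 bases. Over all genes, the KO calls numbered 1198 in mESC, 39 in kidney and 11 in GE/OB, and 530, 23 and 4 at a threshold of 0.01, 1644, 76 and 19 by DESeq2, 3561, 10 and 6 with each tissue fitted alone, and 596 to 1486, 20 to 77 and 2 to 13 with 1 library left out.

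The well numbers of mESC do not pair the samples, since the deviations of same-numbered wells correlated at 0.02, 0.03 and 0.04. With the replicate block, 0 members were called in mESC, kidney and GE/OB KO against WT and 18 between GE/OB and kidney, and the count over all genes in mESC went from 1198 to 914 (39 to 24 in kidney and 11 to 4 in GE/OB). In GE/OB and kidney the embryo numbers name animals and pair none. Depth limits mESC: with 16 to 44 counts per library over all 22 beta genes, changes of single genes by a few counts were not detectable. In GE/OB, 2 embryos a group left intervals up to 1.46 (log2) wide of 0 for the beta genes.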
